A study of Mus musculus with 4 samples.

Results

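The genes described here are 34 regulators of cell death in the mouse cochlea: caspases, Bcl2 family proteins, death receptors and their adaptors, necroptosis kinases, and sensors and adaptors of the inflammasome. A probe belonged to the set when its gene name in the scanner output was one of the 34 names, and each gene was read from the brightest of its probes that passed the scanner software's test for signal over background on 1 array or more. All 34 genes had a probe, 47 probes in all. Of these genes, 33 passed the filter and 32 were above background on all 4 arrays, out of 21961 gene names that passed it on the whole array. *Fasl*, the ligand of the Fas receptor, did not pass that test on any array. *Bcl2l11* (Bim) was above background only in OHC-TRECK DT(-), at the lower limit of that array, so no fold is given for it. The question asked of these genes was whether a death program could still be seen after outer hair cells had been killed, or only the caspases of inflammation.

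Total RNA of whole cochleae was hybridised to 4 Agilent arrays with 1 channel (Cy3), 1 array per group. The mice were of the B6J strain and 5 weeks old, and the RNA of each group came from 8 mice, 4 females and 4 males. WT DT(-) were untreated wild-type mice and WT DT(+) were wild-type mice given diphtheria toxin (DT) at 50 µg/kg body weight 7 days before dissection. OHC-TRECK DT(-) were untreated mice of a transgenic line that carries the human DT receptor under the prestin (*Slc26a5*) promoter, and OHC-TRECK DT(+) were mice of that line given the same dose at the same time. Mouse cells bind DT poorly, so the toxin is meant to kill only cells that make the human receptor, here the outer hair cells (OHCs), the motile receptor cells of the cochlea that amplify sound. All transgenic mice came from 1 line. With 1 array per group there is no replicate check and no test: each difference is one between arrays. The scanner software gives an error for each spot, which for most single-spot probes here comes to about 0.20 on the log2 scale for a difference of 2 arrays. That error is the software's own estimate, nearly the same (0.144 per array) for all bright single-spot probes. It is not a measured spread of spots and does not cover the spread between mice.

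Apoptosis can start inside the cell, where BH3-only proteins such as Noxa, Puma and Bim disarm the survival proteins Bcl2, Bcl-xL and Mcl1, so that Bax and Bak open the mitochondrial outer membrane and the apoptosome of Apaf1 and caspase 9 forms. It can also start at death receptors, which recruit caspase 8. Where caspase 8 is held back, the kinases RIPK1 and RIPK3 and the pseudokinase MLKL can carry out necroptosis, and in the inflammasome the adaptor ASC (*Pycard*) joins sensors such as NLRP3 to caspase 1. DT stops protein synthesis by inactivating elongation factor 2, and killed hair cells are cleared by supporting cells and macrophages.

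The OHC markers were read first, as a check of the labels. *Ocm*, which encodes the calcium buffer oncomodulin, had a log2 normalized signal of 4.36 in WT DT(-), 4.21 in WT DT(+), 4.35 in OHC-TRECK DT(-) and 1.97 in OHC-TRECK DT(+). Here and below, normalized signal is the log2 of the processed spot intensity minus the log2 of the array's 75th percentile, so that 0 is a probe at that percentile. All 7 OHC markers measured on 4 arrays were lowest in OHC-TRECK DT(+), with a median log2 difference of -2.33 from the mean of the 3 other arrays. By 1.5-fold or more against every array, 5 of the 7 were lower. *Lbh* and *Ikzf2* were nearly level, with differences of -0.07 and -0.06 from that mean. *Slc26a5* was at least 1.31-fold lower in OHC-TRECK DT(+) than in OHC-TRECK DT(-), since it was not well above background after toxin. The 2 inner hair cell markers were 0.52 lower (median, log2) and the 6 supporting cell markers 0.07 higher. From arrays of whole cochleae alone, fewer cells of a type and less RNA per cell cannot be told apart. By the cell counts of the study, almost all OHCs were lost after toxin and the number of inner hair cells was unchanged. Its PCR of the inner hair cell marker *Slc17a8* found no significant difference.

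One member stood out. *Pmaip1*, which encodes the BH3-only protein Noxa, was the sole cell death gene that differed by 2-fold or more between OHC-TRECK DT(+) and any other array. Against OHC-TRECK DT(-), 1 of 33 members was higher by 2-fold or more, beside 2.71% of the 21454 genes compared, and 0 were lower, beside 1.42%. Against WT DT(+) the counts were 1 of 32 higher (all genes, 1.52%) and 0 lower (1.95%), and against WT DT(-) they were 1 higher (2.11%) and 0 lower (2.05%). A single member in each comparison is close to the share of all genes. No member differed by 2-fold between the control arrays: the counts were 0 higher and 0 lower for WT DT(+) against WT DT(-), where all genes gave 1.56% and 1.12%, and 0 and 0 for OHC-TRECK DT(-) against WT DT(-), where they gave 1.03% and 2.43%.

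At 1.5-fold the picture was similar. *Pmaip1* and *Casp1* were higher in OHC-TRECK DT(+) than in OHC-TRECK DT(-), 2 of 33 members beside 5.1% of all genes, and no member was lower by that size (all genes, 3.74%). Against WT DT(+), the members past 1.5-fold were *Pmaip1*, *Ripk3* and *Casp4*, 3 of 32 beside 4.12%, and against WT DT(-) they were *Pmaip1* and *Ripk3*, 2 of 32 beside 4.69%. No member was 1.5-fold lower in these comparisons, where 4.62% and 6.01% of all genes were. *Nlrp3* was the sole member past 1.5-fold between untreated wild type and another control, higher in WT DT(+) than in WT DT(-) (1 of 32, all genes 3.08%) and higher in OHC-TRECK DT(-) than in WT DT(-) (1 of 33, all genes 2.36%).

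Smaller differences leaned upward. The signal was highest in OHC-TRECK DT(+) for 16 of the 33 members, beside 30.1% of all genes, and lowest there for 7, beside 30.4%. Of the other arrays, WT DT(-) had the highest signal for 8 members (all genes, 30.9%), OHC-TRECK DT(-) for 6 (19.1%) and WT DT(+) for 2 (14.7%). The median log2 difference of the 32 measured members from the mean of the 3 controls was 0.06, beside a median of -0.00 over the 18248 genes measured on all 4 arrays. Of these members, 20 lay within 0.25 of the control mean. The share of all genes within that distance was not counted, so this number does not set the members apart. The members with the highest signal in OHC-TRECK DT(+) came from the death receptor arm (4 of 5), the Bcl2 effectors and BH3-only proteins (5 of the 7 measured), necroptosis (2 of 3) and the inflammasome (3 of 5). One each came from the apoptosome and its caspases (1 of 6) and from the survival proteins (1 of 6).

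**Figure D1:**
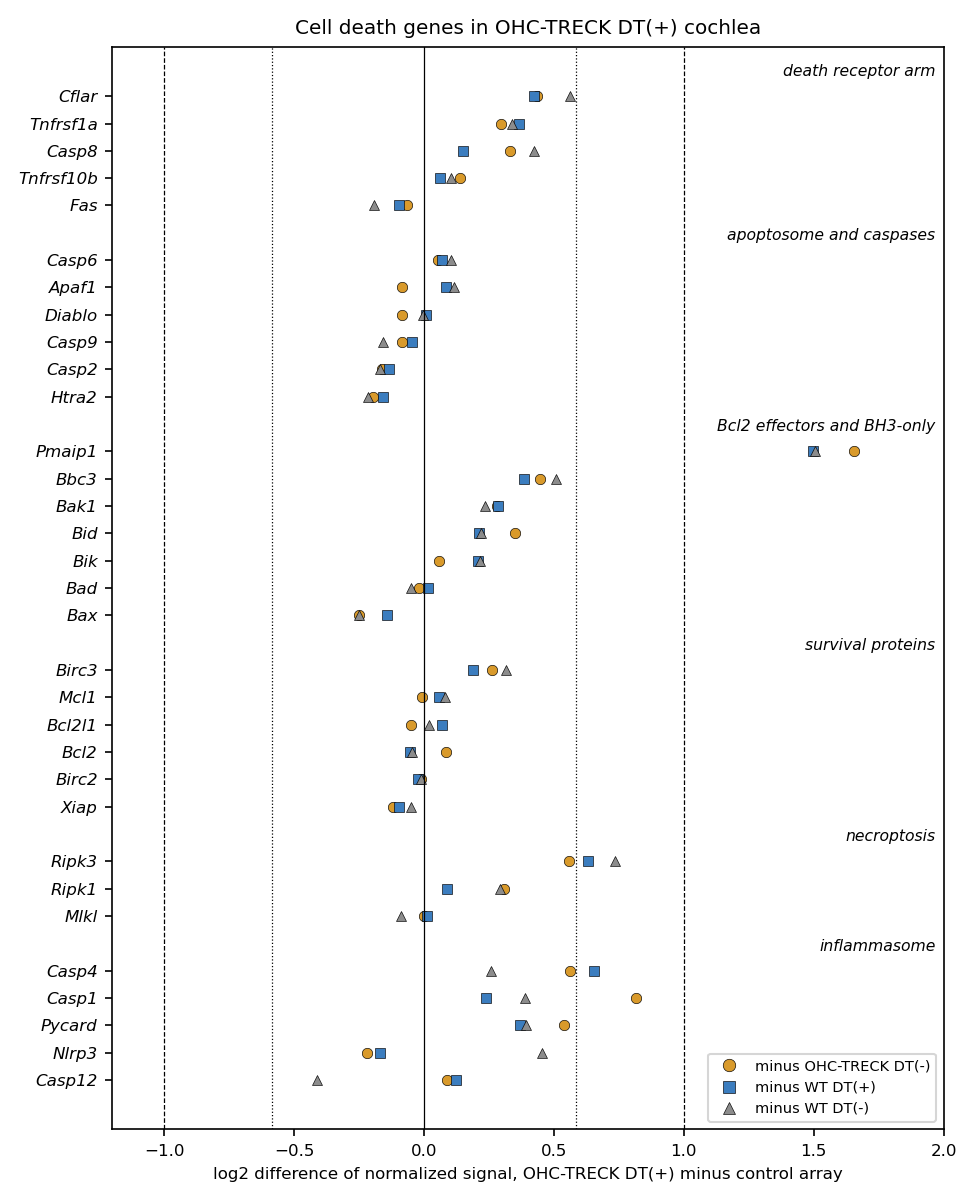
Log2 difference of normalized signal between OHC-TRECK DT(+) and each of the 3 other arrays (x axis) for the 32 cell death genes measured on all 4 arrays, grouped by role. Dashed lines mark 2-fold and dotted lines 1.5-fold. *Pmaip1* lies past 2-fold against every array, *Ripk3*, *Casp1* and *Casp4* pass 1.5-fold against 1 or 2 arrays, and all other members lie inside the dotted lines.

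The BH3-only proteins and the pore-forming effectors come first. The normalized signal of *Pmaip1* was -5.20 in WT DT(-), -5.19 in WT DT(+), -5.34 in OHC-TRECK DT(-) and -3.69 in OHC-TRECK DT(+). In intensity units these were 74.4, 86.7, 74.3 and 241. The controls lay within 0.16 of each other, and the fourth array stood well apart. The signal in OHC-TRECK DT(+) was 3.15-fold that in OHC-TRECK DT(-), 2.82-fold that in WT DT(+) and 2.84-fold that in WT DT(-). The scanner's error for these log2 differences, 1.65, 1.5 and 1.5, was 0.27, 0.34 and 0.29. By its difference from the control mean (1.55), *Pmaip1* ranked 46 among the 18248 genes. It was read from 1 probe with 1 spot, and this probe was dim: only 1.67% of genes had a lower mean signal. Among genes above background on 1 array or more, 1.07% were highest in OHC-TRECK DT(+) by 2-fold or more against each other array. In the dimmest 25% of these genes the share was 3.12%. With normexp in place of the software's background correction, the log2 differences of *Pmaip1* were 1.17, 1.01 and 0.96, so that the last, against WT DT(-), fell short of 2-fold. Normexp was run with 50 intensity units added to every spot, beside control signals of 74.3 to 86.7 for this probe. Such an offset narrows the log2 differences of dim probes, and its share of the change was not tested.

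*Bbc3* encodes Puma, a BH3-only protein that is a well-known target of p53. Its signal was -1.42 in WT DT(-), -1.30 in WT DT(+), -1.36 in OHC-TRECK DT(-) and -0.92 in OHC-TRECK DT(+). The array with toxin and receptor was the highest, at 1.36-fold OHC-TRECK DT(-), 1.31-fold WT DT(+) and 1.42-fold WT DT(-). *Bid*, which links caspase 8 to mitochondria, was -1.72, -1.72, -1.86 and -1.5 on the arrays in the same order, and *Bak1*, which forms the outer membrane pore, was 0.47, 0.42, 0.42 and 0.70. Both were highest in OHC-TRECK DT(+), by 1.16- to 1.28-fold for *Bid* and 1.18- to 1.22-fold for *Bak1*.

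*Bax*, the other pore-forming effector, went the opposite way from *Bak1*. Its signal was 1.29 in WT DT(-), 1.19 in WT DT(+), 1.29 in OHC-TRECK DT(-) and 1.04 in OHC-TRECK DT(+), the lowest of the 4. The log2 difference was -0.25 from OHC-TRECK DT(-), -0.14 from WT DT(+) and -0.25 from WT DT(-), with a scanner error of 0.20 each. *Bik*, another BH3-only gene, was -1.47, -1.46, -1.31 and -1.25, with both transgenic arrays above both wild-type arrays. *Bad*, whose product binds Bcl-xL, was 2.68, 2.61, 2.65 and 2.63 and lay within the range of the controls.

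**Figure D2:**
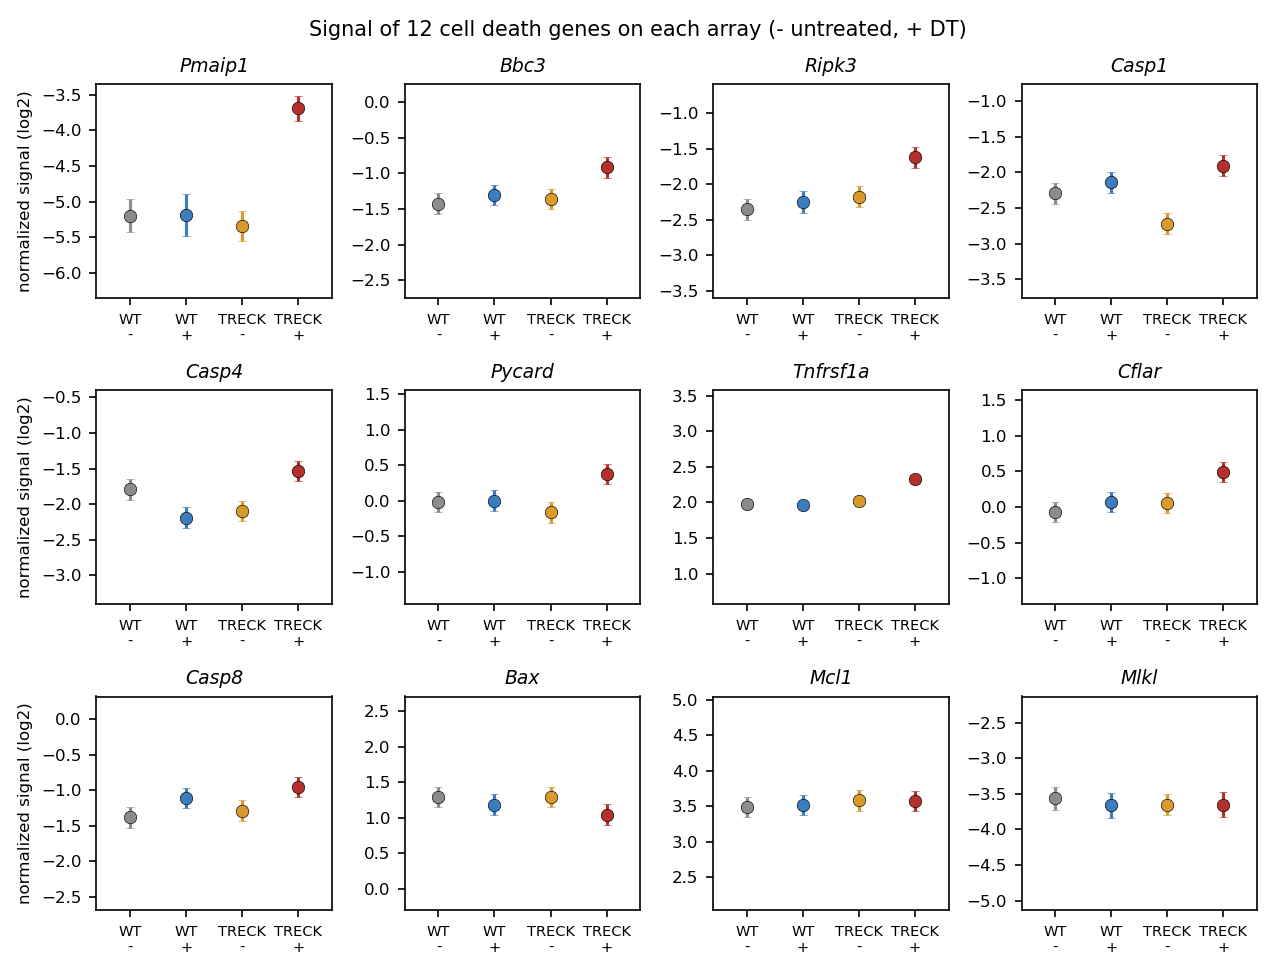
Log2 normalized signal of 12 cell death genes on each array (x axis, genotype and DT). Points are single arrays, error bars are the scanner software's error of that array's value, and each panel spans 3 log2 units. *Pmaip1* rises from about -5.2 on the control arrays to -3.69, while *Mcl1* and *Mlkl* are level.

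The survival proteins were nearly level. *Bcl2l1*, which encodes Bcl-xL, had a signal of 4.80 in WT DT(-), 4.75 in WT DT(+), 4.87 in OHC-TRECK DT(-) and 4.82 in OHC-TRECK DT(+). *Bcl2* was -0.30, -0.29, -0.43 and -0.34 in the same order. In both genes the array with toxin and receptor lay inside the range of the controls. *Birc2*, which encodes the ubiquitin ligase cIAP1 of the tumor necrosis factor (TNF) receptor complex, was -0.66, -0.65, -0.67 and -0.68, the smallest control range (0.01) of any member. *Xiap*, which encodes an inhibitor of caspases, was 2.22, 2.27, 2.29 and 2.17 and was lowest in OHC-TRECK DT(+). *Birc3*, the cIAP2 gene and a target of NF-kB, was the exception, at -3.96, -3.83, -3.91 and -3.64. It was highest in OHC-TRECK DT(+), by 1.14- to 1.25-fold. The median difference of the 6 survival genes from the control mean was 0.00.

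*Mcl1*, a short-lived survival protein, gave different answers from its 2 probes. The brightest probe read 3.49, 3.52, 3.58 and 3.57. The other, nearer the start of the gene (chr3:95465543-95465602 in mm9, against chr3:95466855-95466914 for the brightest), read -0.24, -0.06, -0.18 and 0.36. By this second probe *Mcl1* was highest in OHC-TRECK DT(+), at 1.45-fold OHC-TRECK DT(-), 1.33-fold WT DT(+) and 1.51-fold WT DT(-).

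The apoptosome and the caspases linked to it were level or slightly lower. *Casp9*, the initiator caspase of the mitochondrial pathway, was 1.69 in WT DT(-), 1.58 in WT DT(+), 1.62 in OHC-TRECK DT(-) and 1.54 in OHC-TRECK DT(+). *Casp2*, an initiator caspase of stress responses, was 1.5, 1.46, 1.49 and 1.33, and *Htra2*, a mitochondrial protease that binds XIAP once released, was 1.71, 1.66, 1.69 and 1.5. All 3 genes were lowest in OHC-TRECK DT(+), by 1.16-fold at most. *Apaf1*, the scaffold of the apoptosome, was -3.92, -3.89, -3.72 and -3.81, inside the range of the controls. *Casp6* was 0.45, 0.48, 0.50 and 0.55. *Diablo*, whose product Smac frees caspases from XIAP, was 0.84, 0.83, 0.92 and 0.83. The median difference of these 6 genes from the control mean was -0.06. The second *Diablo* probe was higher in WT DT(-), at -1.79, than on the 3 other arrays, at -2.50, -2.47 and -2.51, which the brightest probe was not.

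Of the death receptor arm, the TNF receptor gene *Tnfrsf1a* was measured most precisely, with 10 spots of its probe on each array. The mean over spots was 1.98 ± 0.045 (SD) in WT DT(-), 1.96 ± 0.045 in WT DT(+), 2.02 ± 0.037 in OHC-TRECK DT(-) and 2.32 ± 0.072 in OHC-TRECK DT(+). The lowest of the 10 spots in OHC-TRECK DT(+), 2.20, was above the highest spot of the other arrays, 2.07. These spots are repeats on 1 array, not of mice. The ratio was 1.23 to OHC-TRECK DT(-), 1.29 to WT DT(+) and 1.27 to WT DT(-), and a second probe gave 1.37, 1.41 and 1.35. *Fas* was -1.14, -1.24, -1.27 and -1.33 and was lowest in OHC-TRECK DT(+). *Tnfrsf10b*, the receptor of the ligand TRAIL, was -1.71, -1.67, -1.74 and -1.61, a difference of at most 1.1-fold.

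Caspase 8 and its regulator c-FLIP (*Cflar*) lie next to each other on chromosome 1, with 0 protein-coding genes between them. *Casp8* was -1.38 in WT DT(-), -1.11 in WT DT(+), -1.29 in OHC-TRECK DT(-) and -0.96 in OHC-TRECK DT(+). It was highest in OHC-TRECK DT(+), but by 1.11-fold only over WT DT(+), which was itself 1.21-fold above WT DT(-). The brightest *Cflar* probe was -0.07, 0.07, 0.06 and 0.49, which made OHC-TRECK DT(+) 1.35-fold OHC-TRECK DT(-), 1.34-fold WT DT(+) and 1.48-fold WT DT(-).

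The 4 *Cflar* probes disagreed according to where they lie in the gene, which runs on the plus strand. In mm9 coordinates the brightest, annotated to an Ensembl transcript, is at chr1:58770546-58770605, and the next, annotated to NM_009805, is at chr1:58789994-58790053. These were higher in OHC-TRECK DT(+) than on every control array, with log2 differences of 0.42 to 0.56 and of 0.24 to 0.29. The probes at chr1:58810660-58810719 and chr1:58811116-58811175, both annotated to NM_207653, were lower than on every control array, with differences of -0.54 to -0.29 and of -0.25 to -0.06. So the 2 probes on the side of the gene start were higher and the 2 on the far side lower. Averaged over its probes, *Cflar* differed by 0.07 from OHC-TRECK DT(-), -0.03 from WT DT(+) and 0.12 from WT DT(-).

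**Figure D3:**
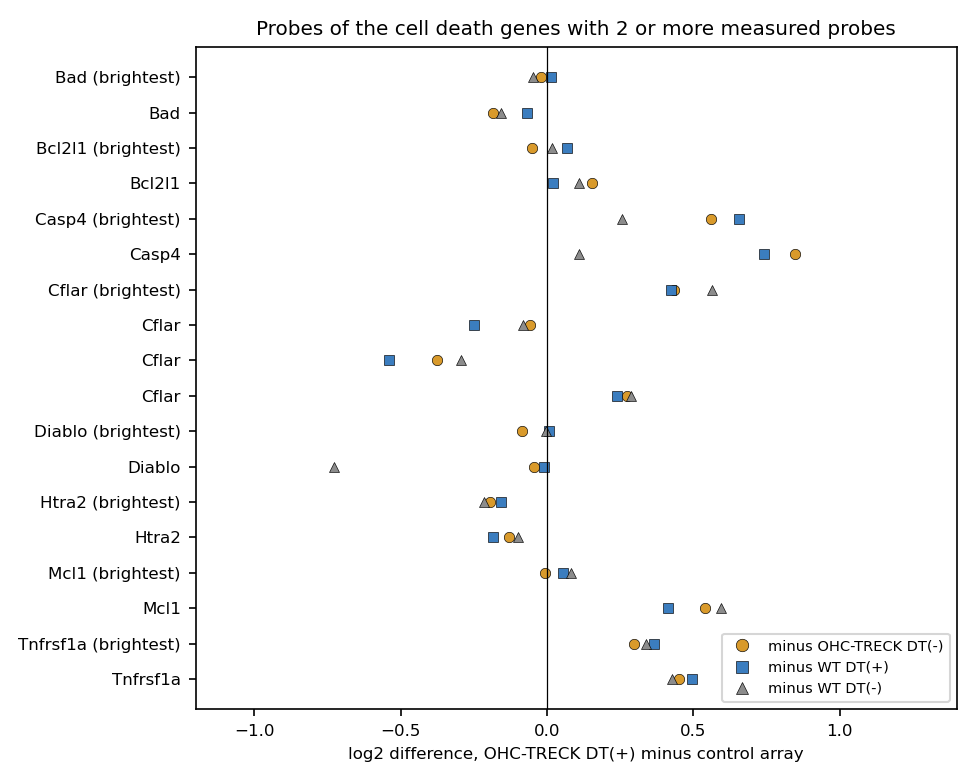
Log2 difference between OHC-TRECK DT(+) and each other array (x axis) for every probe of the cell death genes that have 2 or more probes measured on all 4 arrays. The 4 *Cflar* probes fall on both sides of 0, the second *Mcl1* probe lies to the right of the brightest, and the 2 probes of *Casp4* and of *Tnfrsf1a* lie to the right of 0.

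Among the necroptosis genes *Ripk3* differed most. The signal of this kinase, which activates MLKL, was -2.35 in WT DT(-), -2.25 in WT DT(+), -2.17 in OHC-TRECK DT(-) and -1.62 in OHC-TRECK DT(+). The latter was 1.47-fold OHC-TRECK DT(-), 1.55-fold WT DT(+) and 1.67-fold WT DT(-), with a scanner error of 0.21 on each log2 difference. It was the second highest member by its difference from the control mean (0.64, rank 426 of the 18248 genes). *Ripk1* was -1.86, -1.65, -1.87 and -1.56, highest in OHC-TRECK DT(+) but by only 1.06-fold over WT DT(+). *Mlkl*, which encodes the protein that ruptures the membrane, was level at -3.56, -3.66, -3.65 and -3.65.

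Of the 5 inflammasome members, *Casp1*, *Casp4* and the adaptor ASC were highest in OHC-TRECK DT(+). *Casp1*, which cleaves interleukin 1 beta and gasdermin D, was -2.29 in WT DT(-), -2.14 in WT DT(+), -2.72 in OHC-TRECK DT(-) and -1.90 in OHC-TRECK DT(+). The largest of its ratios, 1.76 to OHC-TRECK DT(-), was set against the lowest control: the ratio was 1.18 to WT DT(+) and 1.31 to WT DT(-), and the controls spanned 0.58 on the log2 scale. *Pycard* was -0.02, 0.00, -0.16 and 0.37, which is 1.45-fold OHC-TRECK DT(-), 1.29-fold WT DT(+) and 1.31-fold WT DT(-). Its controls spanned 0.17, so that *Pycard* stood more clearly apart from them than *Casp1* did.

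*Casp4* encodes the mouse caspase 11, which senses bacterial lipopolysaccharide in the cytosol. Its signal was -1.79 in WT DT(-), -2.19 in WT DT(+), -2.10 in OHC-TRECK DT(-) and -1.54 in OHC-TRECK DT(+). The ratio was 1.48 to OHC-TRECK DT(-), 1.57 to WT DT(+) and 1.20 to WT DT(-). A second probe, which overlaps the first, read -2.01, -2.64, -2.75 and -1.90 and gave ratios of 1.80, 1.67 and 1.08. In both probes the untreated wild-type array was close to OHC-TRECK DT(+), and the 2 other controls were lower.

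The remaining inflammasome genes were not highest in OHC-TRECK DT(+). *Nlrp3*, the sensor, was -5.23 in WT DT(-), -4.61 in WT DT(+), -4.56 in OHC-TRECK DT(-) and -4.78 in OHC-TRECK DT(+), so that untreated wild type was the lowest and the 3 other arrays lay closer together. *Casp12*, an endoplasmic reticulum caspase, was -4.58, -5.12, -5.08 and -5.00, with untreated wild type the highest. Both probes were dim, with 2.07% and 1.09% of genes below them. The 3 caspase genes of this group, *Casp1*, *Casp4* and *Casp12*, lie in a row on chromosome 9 with 0 protein-coding genes between neighbours, and their orders of the 4 arrays differed.

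Setting the toxin effect in one genotype beside that in the other separated the members further. For *Pmaip1* the log2 difference between toxin and no toxin was 0.01 in wild type and 1.65 in OHC-TRECK. For *Casp1* it was 0.15 and 0.82, for *Pycard* 0.02 and 0.54, and for *Ripk3* 0.11 and 0.56. For *Casp4* the signs differed, with -0.40 in wild type and 0.56 in OHC-TRECK. So they did for *Nlrp3*, with 0.62 and -0.22, and for *Casp12*, with -0.54 and 0.09. No member had effects of 1.5-fold or more in opposite directions. The median over the 32 members of the OHC-TRECK effect minus the wild-type effect was 0.07, beside 0.02 over all genes. Neither difference has a replicate behind it.

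**Figure D4:**
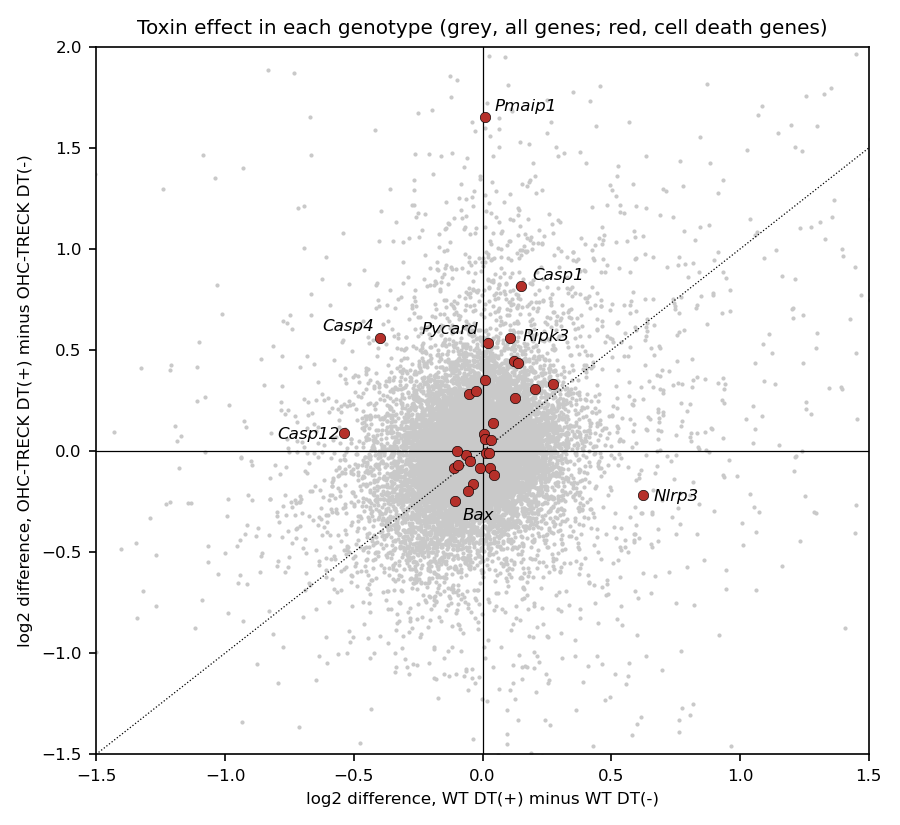
Log2 difference with toxin in wild type (x axis) against that in OHC-TRECK (y axis) for the 32 measured cell death genes (red) over the 18248 genes measured on all 4 arrays (grey, 108 of them outside the axes). The dotted line marks equal effects. *Pmaip1* lies at 0.01 and 1.65, *Casp1* at 0.15 and 0.82, and most members lie near the origin.

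Promoter sequences were searched because NF-kB and interferon signals are known to act on genes of these pathways. The windows run from 250 bases before to 50 bases after the gene start in GRCm38.p6 (RefSeq), and 30 of the 34 members had one. Those without were *Bik*, *Htra2*, *Pmaip1* and *Tnfrsf10b*. The NF-kB motif, searched as GGG, any 2 bases and TTTCC on both strands, was found in 4 of the 30 members (13.3%), *Casp4*, *Bbc3*, *Mcl1* and *Bcl2l1*, and in 1.89% of all 27025 genes with a window. The interferon motif, searched as GAAA, any 2 bases and GAAA on both strands, was found in 2 (6.67%), *Cflar* and *Ripk1*, and in 3.99% of all genes. *Casp1*, *Ripk3* and *Pycard* held no match to either. A match is a run of letters and does not show that a factor binds there. The stretches with matches are shown because they belong both to members that were highest in OHC-TRECK DT(+) (*Casp4*, *Bbc3*, *Cflar*, *Ripk1*) and to members whose brightest probe was level (*Mcl1*, *Bcl2l1*). Each is written 5′ to 3′ along the gene's strand, with the match in capitals.

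The *Casp4* stretch is chr9:5308599-5308848 (plus strand), the 250 bases before the start, with matches that begin 93 and 14 bases before it, the second on the opposite strand. The *Bbc3* stretch is chr7:16309333-16309582 (plus strand), also the 250 bases before the start, with 1 match on the opposite strand that begins 136 bases before it.
Casp4: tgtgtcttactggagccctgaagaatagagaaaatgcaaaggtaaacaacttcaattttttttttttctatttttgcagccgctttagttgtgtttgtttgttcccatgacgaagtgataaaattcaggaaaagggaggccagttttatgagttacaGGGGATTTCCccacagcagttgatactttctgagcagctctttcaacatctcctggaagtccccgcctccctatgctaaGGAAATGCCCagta
Bbc3: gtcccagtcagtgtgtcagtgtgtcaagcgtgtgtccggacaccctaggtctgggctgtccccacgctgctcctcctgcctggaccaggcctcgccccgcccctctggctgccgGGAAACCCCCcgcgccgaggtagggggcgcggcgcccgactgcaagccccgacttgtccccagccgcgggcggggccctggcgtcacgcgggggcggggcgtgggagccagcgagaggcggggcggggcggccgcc

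Of the other 4 members, 30 bases around the match are given. They are chr3:95658683-95658712 (plus strand) for *Mcl1*, chr2:152830916-152830945 (minus strand) for *Bcl2l1*, chr1:58711487-58711516 (plus strand) for *Cflar* and chr13:34002859-34002888 (plus strand) for *Ripk1*. The *Mcl1* and *Bcl2l1* matches begin 28 and 218 bases before the start, the *Ripk1* match begins 5 bases before it, and the *Cflar* match lies just after it. All but the *Ripk1* match are on the opposite strand.
Mcl1: ccagccctccGGAAACGCCCgcccctttcc
Bcl2l1: tacgcctctcGGAAAAACCCgggagtggtc
Cflar: ccacgtctgcTTTCGGTTTCtgggcgtctc
Ripk1: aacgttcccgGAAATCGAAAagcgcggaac

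Further genes of these pathways were read from lists of textbook members, and most were level. The 14 measured p53 target genes had a median of -0.05 and none past 1.5-fold against every array. The signal was highest in OHC-TRECK DT(+) for 4 of them and lowest there for 5. *Cdkn1a*, the cell cycle inhibitor p21, was 1.34 in WT DT(-), 1.32 in WT DT(+), 1.25 in OHC-TRECK DT(-) and 1.53 in OHC-TRECK DT(+). It was 1 of the 4 that were highest, by 1.14- to 1.21-fold.

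Stress and pyroptosis genes gave a few larger differences. *Atf3*, a transcription factor of the stress response, was -1.66 in WT DT(-), -1.21 in WT DT(+), -1.60 in OHC-TRECK DT(-) and 0.21 in OHC-TRECK DT(+), which is 3.50-fold OHC-TRECK DT(-), 2.67-fold WT DT(+) and 3.66-fold WT DT(-). It was the one gene past 1.5-fold against every array among the 11 measured endoplasmic reticulum stress genes, whose median was -0.04. *Ddit3* (CHOP), which drives apoptosis in that response, was 0.19, 0.26, 0.12 and 0.22. Of 14 measured inflammasome and pyroptosis genes (median 0.01), *Il1b*, the substrate of caspase 1, alone was past 1.5-fold against every array, at -4.98, -4.72, -4.58 and -3.83. *Gsdmd*, which forms the pyroptotic pore, was -1.55, -1.53, -1.61 and -1.45. Of 18 measured death receptor and necroptosis genes (median 0.02), the same held for *Tnfrsf1b*, the second TNF receptor, at -4.10, -3.81, -4.00 and -3.09. Of all genes above background on the 4 arrays, 1.68% were highest in OHC-TRECK DT(+) by that size.

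Of the 10 other Bcl2 family genes measured, 2 were higher by 2-fold or more in OHC-TRECK DT(+) than on every array, beside 0.526% of all genes above background on the 4 arrays. *Bcl2a1d* was -1.24 in WT DT(-), -1.49 in WT DT(+), -1.45 in OHC-TRECK DT(-) and 0.23 in OHC-TRECK DT(+), and *Bcl2a1c* was -5.27, -5.18, -5.27 and -3.32. These are survival genes of blood cells, and their near-identical copies may share signal across probes, so which copy differed is uncertain. The median of the 10 genes was -0.00.

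**Figure D5:**
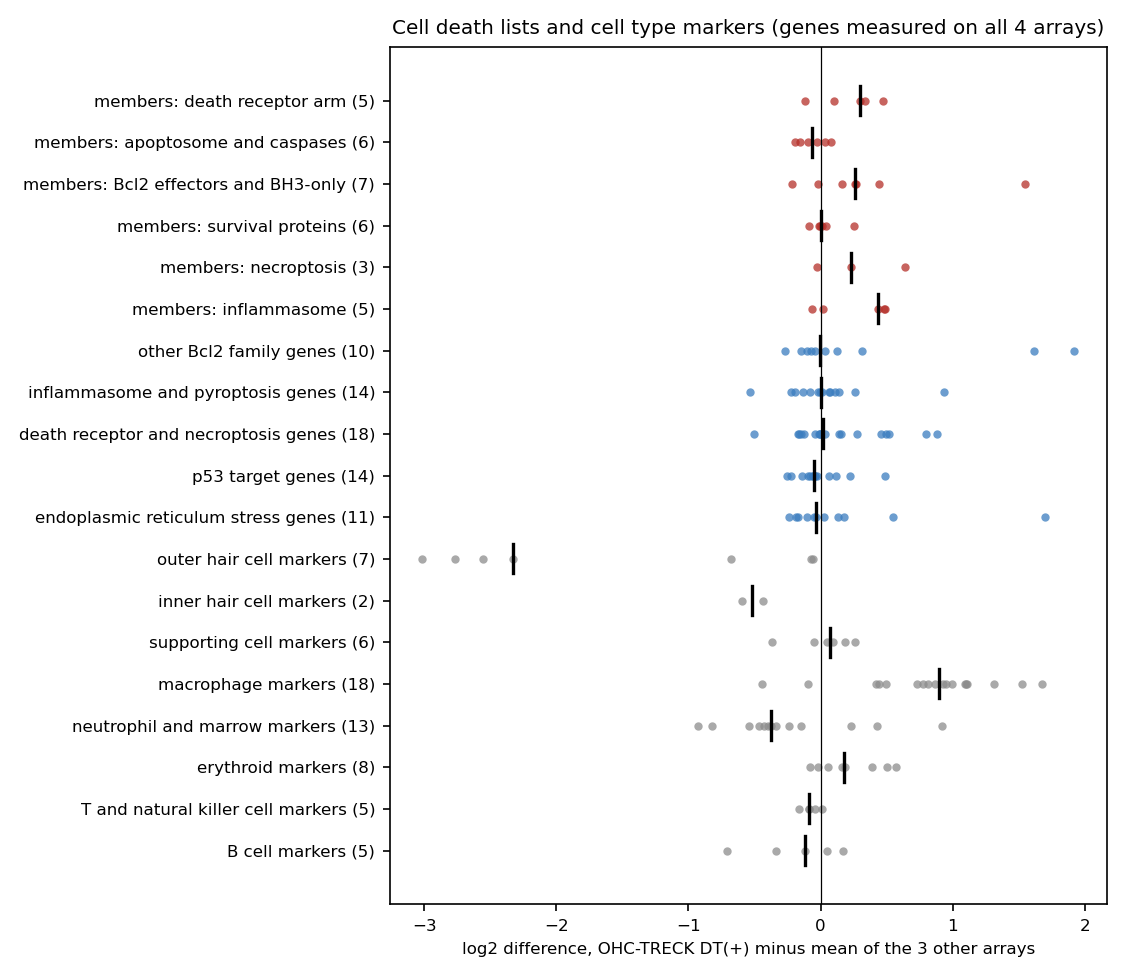
Log2 difference between OHC-TRECK DT(+) and the mean of the 3 other arrays (x axis) for cell death genes by role (red), other genes of death pathways (blue) and cell type markers (grey), with the number of genes measured on all 4 arrays in brackets. Each point is 1 gene and each black bar a median. Most OHC markers lie well to the left (median -2.33) and most macrophage markers to the right (0.90). The median of the 5 inflammasome members (0.43) lies between 0 and that of the macrophage markers.

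Markers of immune and blood cells were read beside the cell death genes. Of 18 measured macrophage markers, 16 were highest in OHC-TRECK DT(+) and 13 by 1.5-fold or more against every array. The other 2, *Itgam* (3.18, 2.78, 2.67 and 2.43) and *Mertk* (-0.08, 0.07, -0.07 and -0.12), were lowest there. Their summed signal, in units of the 75th percentile, was 37.1 in WT DT(-), 33.4 in WT DT(+), 30.2 in OHC-TRECK DT(-) and 52.4 in OHC-TRECK DT(+). *Cd68* was -0.26, -0.21, -0.46 and 1.0, and *Csf1r*, the receptor of a macrophage growth factor, was 3.0, 2.93, 2.79 and 3.40. The median difference was 0.90 for the macrophage markers and 0.43 for the 5 inflammasome members. The neutrophil and marrow markers had another order, with sums of 39.4, 62.0, 14.3 and 24.5, highest in WT DT(+) and lowest in OHC-TRECK DT(-). The 8 measured erythroid markers had a median log2 signal of -1.99, 0.58, -2.26 and -0.74, highest in WT DT(+), and sums, to which *Hba-a1* gave the most, of 65.6, 85.0, 78.5 and 85.6. The T and natural killer cell markers had sums of 2.74, 2.34, 2.14 and 2.33, and the B cell markers of 0.51, 1.21, 0.385 and 0.547. The part of these cells in the differences of the cell death genes was not tested.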

How the data were processed

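Cochlear RNA was read on 4 Agilent 1-colour arrays, 1 per group, each of RNA pooled from 8 mice. The authors deposited the output of Agilent Feature Extraction 11.5.1.1. Per the file headers, the deposited intensity of each spot is linear and background-subtracted, with no scaling between arrays. The ratio values the authors deposited in a second table are this intensity divided by 1 constant per array. Their scale is linear, they are not centred on genes, and their column medians were 0.0865, 0.0853, 0.0828 and 0.0850 (WT DT(-), WT DT(+), OHC-TRECK DT(-), OHC-TRECK DT(+)).

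From these, control spots and outlier spots were left out (149 to 228 outliers per array, 0 saturated), spots of one probe were averaged, and the log2 intensity was set against the 75th percentile of the array (2728, 3162, 3018 and 3120 intensity units, in that order). Each gene was read from the brightest of its probes that the software called well above background on 1 array or more (62.2% to 70.6% of probes passed per array). A signal not above background was raised to the lowest signal that was, unless its own was higher, and such a fold is a bound. Between spots of one probe the median SD was 0.061 to 0.071 (log2). The number of arrays limits the precision. All comparisons are differences of single arrays, with counts at 2-fold and 1.5-fold. Python 3.11.15, numpy 2.4.6, pandas 2.3.3, matplotlib 3.10.9, R 4.3.3 and limma 3.58.1 were used, and the calculation was tested on simulated data.

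Every member is named. From the other lists, *Gsdmd*, *Il1b*, *Cdkn1a*, *Ddit3* and genes past 2-fold against every array are named by rule; 1 list and some genes of the rule are not reported here. *Tnfrsf1b* and the marker genes shown as examples were chosen after their values were seen. The members, lists and tests were chosen with earlier results of these data known. Probe positions are those of the file headers (mm9). All 34 names were in the RefSeq gene table. Protein sequences were not analysed here. The alternatives were the floor, the filter on dim probes, background correction, scaling, the deposited table, the mean of all probes and the fold that counts as changed.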

Additional observations from a re-analysis of the deposited data

How the results depend on the processing

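No paired analysis was possible because each group has 1 array. At 1.5-fold in place of 2-fold, the members counted as changed were 2 in OHC-TRECK DT(+) against OHC-TRECK DT(-), 3 against WT DT(+) and 2 against WT DT(-), in place of 1 each, and 1 in WT DT(+) against WT DT(-) and 1 in OHC-TRECK DT(-) against WT DT(-), in place of 0. With normexp background correction and its offset of 50 intensity units, the count against WT DT(-) was 0. The log2 difference of *Pmaip1* was 0.96 there. The offset narrows log2 differences of dim probes, and its part in this was not tested. Under the other alternatives run these counts were the same. The median difference of the members from the control mean was 0.06 to 0.09, the number highest in OHC-TRECK DT(+) 16 to 17 and the number lowest 6 to 9, over all alternatives including 1 chosen after seeing the data (dim members at the floor, 0.08). The median difference of the toxin effects was 0.07 to 0.09. The 7 differences of 1.5-fold or more between OHC-TRECK DT(+) and another array kept their sign and stayed at 1.5-fold or more in the alternatives run on them. The largest move apart from *Pmaip1* was 0.45, for *Cflar* against WT DT(+), which changed sign from 0.42 to -0.03 when its probes were averaged. Among members measured on all 4 arrays, dim probes (*Pmaip1*, *Nlrp3*, *Casp12*) carry the largest scanner errors of a difference, up to 0.38.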
